A study of Mus musculus with 6 samples.

Results

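Immediate early genes are represented here by *Fos*, *Fosb*, *Jun*, *Junb*, *Jund*, *Egr1*, *Ier2*, *Atf3*, *Nr4a1* and *Zfp36*, a set given by name and not by its values. All 10 were listed in the UMI tables of all 6 tumors, out of 16557 genes listed in any of them. Each tumor is a rhabdoid tumor of 1 mouse, dissociated and sequenced cell by cell as 1 library. The 3 MYC spinal tumors came from mice 1172, 1177 and 1232 of the Rosa26-cre strain, aged 19, 26 and 17 weeks. The 3 extracranial rhabdoid tumors (eRT) came from mouse 1148 (gland, Rosa26-cre, 17 weeks by the labels, though the study's sample list gives another age) and from mice 568 (jaw, 29 weeks) and 593 (shoulder, 22 weeks) of the Sox2-cre strain. All 6 mice carried floxed *Smarcb1* alleles and a tamoxifen-inducible Cre, and tamoxifen was given once, at 50 mg/kg, to the pregnant mother at 6.5 days post coitum. Cre acts in few cells of such a mouse, so tumor cells lack *Smarcb1*, which encodes part of the SWI/SNF remodeler of chromatin, while most immune cells keep it. Subtype and mouse model are partly confounded, since both Sox2-cre tumors are eRT. In all lists of values below, the MYC spinal tumors follow the order 1172, 1177, 1232 and the eRT the order 1148, 568, 593.

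Immediate early genes are transcribed within minutes of a stimulus, without the need for new protein, when kinases such as ERK and p38 activate factors already bound at their promoters, among them SRF with its ternary complex partners and CREB. Fos and Jun proteins pair to form AP-1, which with the other early factors switches on a later wave of genes. The same genes respond to growth factors, to inflammatory signals in myeloid cells, to antigen receptors in lymphocytes and to the stress of tissue dissociation. The tissues here were digested for 20 min at 37 °C before dead cells were sorted out, and every sample went through that step, so its part in any level was not tested.

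The tables held 22681 cells, of which 22163 were kept, those with 200 genes or more and a mitochondrial share of UMIs up to 25%. A UMI, or unique molecular identifier, marks 1 captured transcript. Depth ranged from 3841706 to 26184224 UMIs per tumor and from a median of 916 to 5211 UMIs per cell. Cells were clustered without the 10 genes and without the related lists described below, and clusters were named from marker genes. Tumor cells were clusters short of *Smarcb1*. It reached 0 to 6.41 CPM (UMIs of the gene per 1000000 UMIs) in the tumor cells of the 6 tumors. In the named immune cells of the same tumors it reached 27.6 to 59.7 CPM, a gap that follows from the rule. In the eRT the clusters so taken also met the marker rule for fibroblasts or epithelial cells, and the lack of *Smarcb1* took precedence. The cluster with epithelial markers held 38 of the 68 tumor cells of eRT 1148. *Ptprc* (CD45), the leukocyte marker, stood at 7.20 to 44.7 CPM in tumor cells and at 112 to 430.1 CPM in immune cells. Tumor cells numbered 101, 15 and 1717 (MYC spinal) and 68, 201 and 626 (eRT), so the 15 cells of MYC spinal 1177 weigh on every value of that tumor. Neutrophil-like cells reached 10 cells only in MYC spinal 1177, MYC spinal 1232 and eRT 568. Free RNA in the droplets was not estimated, so its part in any level was not tested. Cell barcodes shared between libraries were not counted, since cells carry running numbers.

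The 10 genes lie on 7 chromosomes of the GRCm38 build. *Fos* is at chr12:85473890-85477273 on the plus strand, *Fosb* at chr7:19302696-19310051 and *Zfp36* at chr7:28376784-28380253 on the minus strand, and *Jun* at chr4:95049034-95052222 on the minus strand. On chromosome 8 are *Junb* (chr8:84974484-84978718, minus), *Jund* (chr8:70698949-70700616, plus) and *Ier2* (chr8:84661331-84662852, minus). *Atf3* is at chr1:191170296-191218039 on the minus strand and *Nr4a1* at chr15:101254269-101274795 on the plus strand. RefSeq promoter sequences of the same build were found for 8 of the 10, without *Egr1* and *Ier2*. The core of the cAMP response element, TGACG on either strand, to which CREB and ATF proteins bind, was present in the 250 bases before the start of 5 of these 8 genes and of 17.8% of all 32851 promoters. The nearest copy to each start is shown because these are the letters the 5 promoters share, with the motif in capitals (CGTCA where it reads on the other strand) and 12 bases on each side, or fewer where the window ends.
Fos (chr12:85473812-85473840, plus strand): agttccgcccagTGACGtaggaagtccat
Fosb (chr7:19310089-19310117, minus strand): tggagttgcgggTGACGcaagcgcggggg
Junb (chr8:84978838-84978866, minus strand): gcttcctgacagTGACGcgagccgcctcc
Atf3 (chr1:191183334-191183352, minus strand): ttaatagcattaCGTCAgc
Nr4a1 (chr15:101266794-101266822, plus strand): cccctctccatgCGTCAcggagcgcttaa

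These copies lie 66, 60, 106, 7 and 40 bases before the starts of *Fos*, *Fosb*, *Junb*, *Atf3* and *Nr4a1*, and *Fos* holds 2 and *Nr4a1* 4 copies in the 250 bases. These are the starts of the RefSeq transcripts, which for *Atf3* and *Nr4a1* lie inside the longer gene spans of the GENCODE annotation given above, so their windows also lie inside those spans. The full palindrome TGACGTCA, which contains the core, was in 0 of 8 and in 1.55% of all promoters. The AP-1 site TGANTCA was in 0 of 8 and in 6.75% of all. A serum response element, the site of SRF, was found within these 250 bases in 1 of 8 (*Zfp36*) and in 1.47% of all. Sites farther from the starts, and any of *Egr1* and *Ier2*, were not searched. The EGR site GCGNGGGCG was in 3 of 8 (*Fosb*, *Nr4a1* and *Zfp36*) and in 4.7% of all, and a TATA box (TATAAA, gene strand) in 1 of 8 (*Fos*) and in 7.59% of all. A match is a run of letters and no measurement of binding.

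All 10 genes were found in tumor cells of all 6 tumors. Summed over the 10, tumor cells held 1940.4 to 4002 CPM (median 3649), macrophage-like cells 3677 to 12114 CPM (median 5240.0), monocyte-like cells 2706 to 13505 CPM (median 4070.1), T cell-like cells 2029 to 6146 CPM (median 3197) and natural killer cell-like cells 1725 to 4491 CPM (median 3024). Neutrophil-like cells held 1889.8, 2142 and 12114 CPM in MYC spinal 1177, MYC spinal 1232 and eRT 568. The ranges overlapped between all kinds of cells, and over all tumors the spread was wider in myeloid cells than in tumor cells. That width came from eRT 568, the top of each myeloid range. Without it macrophage-like cells held 3677 to 7235 CPM and monocyte-like cells 2706 to 4598 CPM. Within the largest tumor-cell cluster of each subtype, described below, tumor cells held 1968 to 6507 CPM, with eRT 568 the highest.

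**Figure D1:**
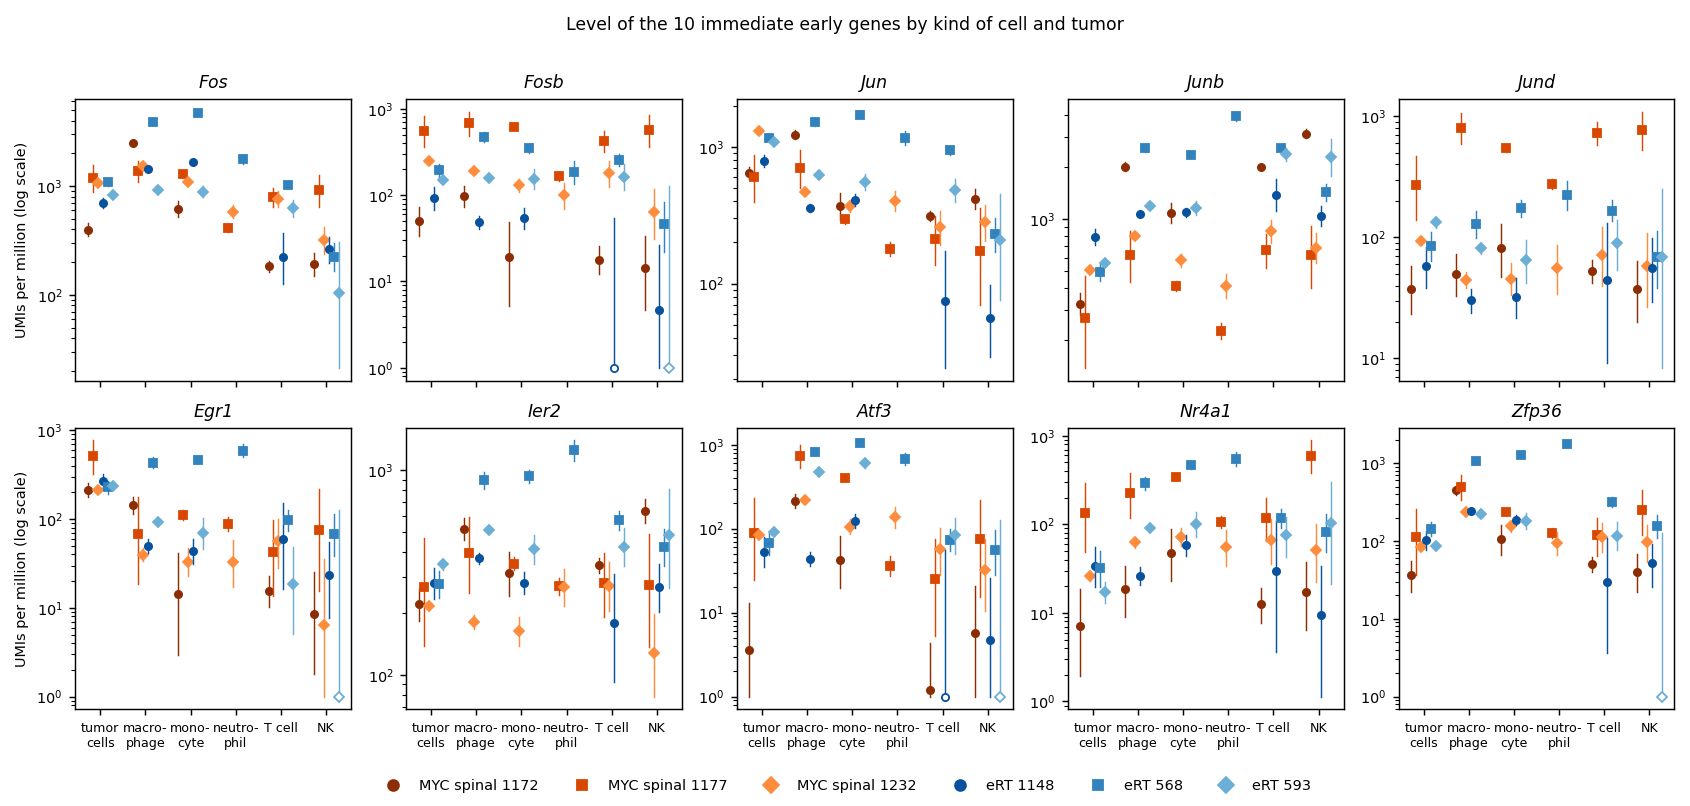
Level of each of the 10 genes in CPM (log axis) in 6 kinds of cells, with 1 point for each tumor (orange, MYC spinal; blue, eRT), 95% counting intervals as bars, and open symbols at 1 for a level of 0. *Zfp36* and *Junb* points of tumor cells lie below the macrophage-like points of the same tumors, and eRT 568 tops the myeloid columns for most genes.

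Tumor cells were set against macrophage-like cells within the same tumors. This asks how these genes differ between the malignant cells and a kind of myeloid cell found in all 6 tumors. Of the 10 genes, 6 were lower in tumor cells (*Fos*, *Junb*, *Ier2*, *Atf3*, *Nr4a1* and *Zfp36*), 1 was higher (*Egr1*) and 3 did not pass the threshold (*Fosb*, *Jun* and *Jund*). Among all 8762 genes tested, 37.0% passed, 17.8% as higher and 19.2% as lower, and of the genes not used for clustering 29.4% passed. The median log2 fold change was -1.13 over the 10 genes and 0.03 over all genes. Fold changes and adjusted p are from edgeR's quasi-likelihood test on UMIs summed by tumor and kind of cell, with the tumor as a block and Benjamini-Hochberg adjustment over all genes, and carry 1 SE. They are on the scale of TMM, which sets the library sizes so that most genes keep equal levels, while CPM are per total UMIs.

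*Fos* encodes the partner that gives AP-1 its transient activity. Its level in tumor cells was 398, 1185 and 1078 (MYC spinal) and 699, 1089 and 825 CPM (eRT). In macrophage-like cells it was 2495, 1373 and 1517 (MYC spinal) and 1437, 3865 and 925 CPM (eRT). Tumor cells were the lower of the 2 in 6 of 6 tumors, though the ranges over tumors overlapped (log2 fold change -1.37 ± 0.39, edgeR adjusted p = 0.0071). *Fosb*, its close relative, stood at 50.4, 559 and 251 (MYC spinal) and 94.0, 195 and 149.6 CPM (eRT) in tumor cells and at 96.7, 686 and 189.6 (MYC spinal) and 48.4, 468 and 157 CPM (eRT) in macrophage-like cells. MYC spinal 1177 was highest in both, tumor cells were lower in 4 of 6 tumors, and the difference did not pass the threshold (adjusted p = 0.385 by edgeR).

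The Jun proteins, the other partners in AP-1, gave 1 call among 3 genes. *Jun* was at 648, 604 and 1309 (MYC spinal) and 795, 1165 and 1078 CPM (eRT) in tumor cells and at 1232, 703 and 469 (MYC spinal) and 356, 1525 and 628 CPM (eRT) in macrophage-like cells, with overlapping ranges and an adjusted p of 0.756 by edgeR. *Junb*, a Jun protein active in lymphoid and myeloid cells, was at 324, 268 and 512 (MYC spinal) and 788, 493 and 555 CPM (eRT) in tumor cells. Macrophage-like cells held 2018, 618 and 801 (MYC spinal) and 1071, 2593 and 1193 CPM (eRT) of it, more than the tumor cells of the same tumor in 6 of 6 (log2 fold change -1.51 ± 0.37, edgeR adjusted p = 0.0022). *Jund*, the Jun protein that most cells keep at a steady level, was at 37.8, 268 and 93.8 (MYC spinal) and 57.7, 85.4 and 133 CPM (eRT) in tumor cells and at 50.2, 806 and 44.6 (MYC spinal) and 30.2, 129 and 81.2 CPM (eRT) in macrophage-like cells. MYC spinal 1177 was the highest tumor in both kinds of cells, and the difference between them missed the threshold (adjusted p = 0.962 by edgeR).

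*Egr1*, a zinc finger factor induced through SRF, was the only one of the 10 that passed as higher in tumor cells. Tumor cells held 214, 514 and 214 (MYC spinal) and 269, 227 and 239 CPM (eRT), and 5 of the 6 tumors lay within 214 to 269 CPM. Macrophage-like cells held 143, 68.6 and 39.8 (MYC spinal) and 49.9, 435 and 92.7 CPM (eRT), and eRT 568 was the only tumor in which they exceeded the tumor cells. The difference was a log2 fold change 1.17 ± 0.45, edgeR adjusted p = 0.0432, and it missed the threshold once any of MYC spinal 1177, MYC spinal 1232, eRT 1148 or eRT 593 was left out (adjusted p = 0.0927 to 0.128).

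*Atf3*, a stress-induced repressor of inflammatory genes, had the largest fold change of the 10 with all 6 tumors in the fit. It was at 3.60, 89.4 and 85.1 (MYC spinal) and 53.4, 67.7 and 91.6 CPM (eRT) in tumor cells, where the lowest value rests on 2 UMIs in 101 cells. Macrophage-like cells held 214, 738 and 219 (MYC spinal) and 43.6, 829 and 473 CPM (eRT) of it, more than tumor cells except in eRT 1148 (log2 fold change -2.77 ± 0.64, edgeR adjusted p = 0.0014). *Nr4a1* encodes Nur77, an orphan nuclear receptor induced by antigen receptors and by inflammatory signals, and its tumor-cell level was 7.20, 134 and 26.1 (MYC spinal) and 34.2, 32.2 and 17.2 CPM (eRT). With 18.6, 223 and 62.6 (MYC spinal) and 26.4, 293 and 91.7 CPM (eRT), macrophage-like cells exceeded tumor cells in 5 of 6 tumors, the exception being eRT 1148 (log2 fold change -1.67 ± 0.40, edgeR adjusted p = 0.002).

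*Zfp36* encodes tristetraprolin, which speeds the decay of cytokine mRNAs. Its tumor-cell level was 36.0, 112 and 82.8 (MYC spinal) and 103, 143 and 86.2 CPM (eRT). In macrophage-like cells it was 450.2, 498 and 238 (MYC spinal) and 242, 1080.2 and 219 CPM (eRT), so the 2 ranges did not overlap (log2 fold change -2.30 ± 0.43, edgeR adjusted p = 0.000181). *Ier2*, a nuclear protein named as an immediate early response gene, was at 221, 268 and 218 (MYC spinal) and 279.9, 277 and 348 CPM (eRT) in tumor cells, all within 218 to 348 CPM. Macrophage-like cells held 517, 395 and 181 (MYC spinal) and 372, 897 and 510.5 CPM (eRT), above the tumor cells in all tumors but MYC spinal 1232 (log2 fold change -0.89 ± 0.28, edgeR adjusted p = 0.0137). The calls of *Fos* and *Ier2* each rest on single tumors: without MYC spinal 1172 the adjusted p was 0.0526 for *Fos* and 0.126 for *Ier2*, and without eRT 568 it was 0.0662 for *Ier2*.

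Against T cell-like cells of the same tumors, tumor cells had more *Jun* and *Egr1* and less *Junb*, and the other 7 genes did not pass the threshold. In the background, 35.3% of the 8762 genes passed, 19.2% as higher and 16.0% as lower, and 28.7% of those not used for clustering. The median log2 fold change was 0.15 over the 10 genes and 0.06 over all genes. T cell-like cells held 312, 212 and 258 (MYC spinal) and 74.6, 943 and 484 CPM (eRT) of *Jun*, below the tumor cells of the same tumor in 6 of 6 (log2 fold change 1.57 ± 0.35, edgeR adjusted p = 0.0012). Their *Egr1*, at 15.5, 42.4 and 56.7 (MYC spinal) and 59.7, 97.3 and 18.8 CPM (eRT), lay entirely below the range of the tumor cells (log2 fold change 2.86 ± 0.52, edgeR adjusted p = 0.000179). *Junb* in T cell-like cells was 2003, 662 and 851 (MYC spinal) and 1387, 2573 and 2378 CPM (eRT), above tumor cells in 6 of 6 tumors (log2 fold change -1.59 ± 0.37, edgeR adjusted p = 0.00162).

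*Fos* was higher in tumor cells than in T cell-like cells of every tumor, but the test gave an adjusted p of 0.251 by edgeR, with T cell-like levels of 184, 789 and 763 (MYC spinal) and 224, 1033 and 625 CPM (eRT). *Fosb* was at 17.9, 424 and 180.4 (MYC spinal) and 0, 256 and 164 CPM (eRT) in T cell-like cells, and the 0 of eRT 1148, in 29 cells, allows up to 44.7 CPM. *Atf3* was at 1.19, 25.5 and 56.7 (MYC spinal) and 0, 74.2 and 84.6 CPM (eRT) there, with the same limit for its 0. Both genes overlapped with their tumor-cell ranges. *Nr4a1* was at 12.5, 119 and 67.0 (MYC spinal) and 29.8, 117 and 75.2 CPM (eRT) in T cell-like cells, and its difference came to an adjusted p of 0.0711 by edgeR. *Zfp36*, at 50.0, 119 and 113 (MYC spinal) and 29.8, 317 and 117 CPM (eRT), gave an adjusted p of 0.765. *Ier2*, at 343, 280.0 and 273 (MYC spinal) and 179, 569 and 423 CPM (eRT), gave an adjusted p of 0.399. These 2 genes had been lower in tumor cells than in macrophage-like cells, and the difference between those 2 comparisons was not tested.

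**Figure D2:**
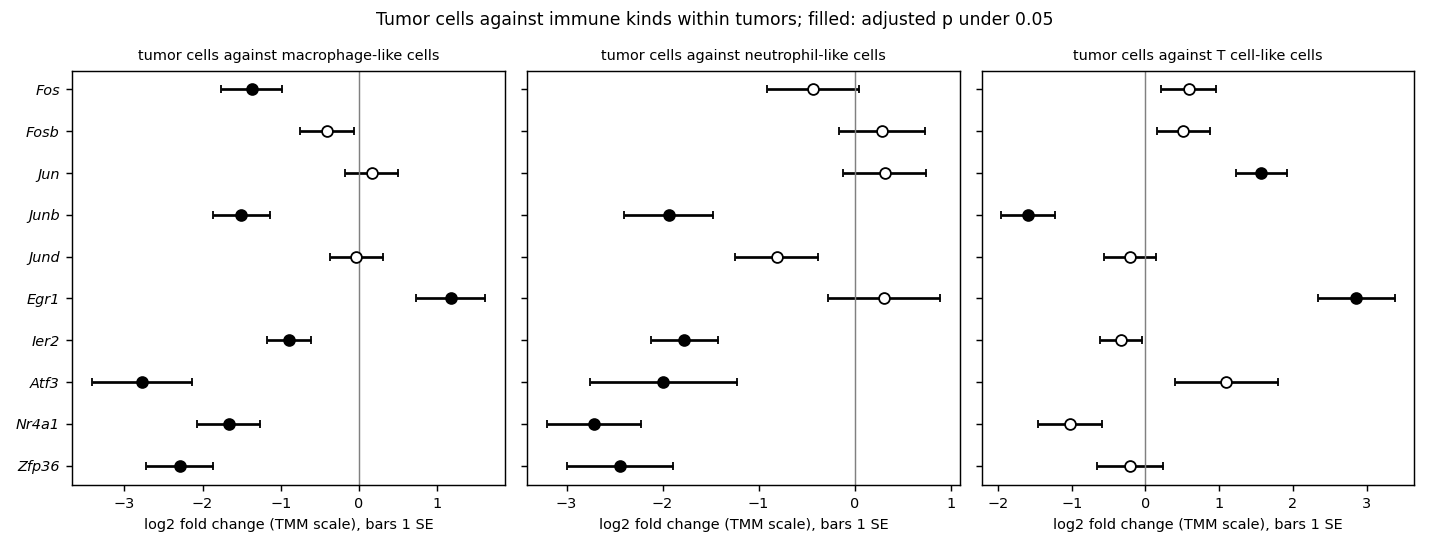
Log2 fold change (points) with 1 SE (bars) of each of the 10 genes in tumor cells against macrophage-like (left), neutrophil-like (middle) and T cell-like cells (right) of the same tumors, on the TMM scale, with filled points past an adjusted p of 0.05. *Junb* lies left of 0 in all 3 panels, while *Egr1* is right of 0 and filled against macrophage-like and T cell-like cells.

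Neutrophil-like cells could be compared with tumor cells in 3 tumors, MYC spinal 1177, MYC spinal 1232 and eRT 568. *Junb*, *Ier2*, *Atf3*, *Nr4a1* and *Zfp36* were lower in tumor cells, and 0 of the 10 were higher. Over all genes 35.4% passed, 15.5% as higher and 19.9% as lower, and 30.7% of those not used for clustering. The median log2 fold change was -1.29 over the 10 genes and 0.08 over all genes. The TMM factors of neutrophil-like cells were 0.489, 0.699 and 0.536, well below 1, so levels in this comparison are given as CPM after TMM scaling, in the order of the tumors just named.

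*Zfp36* on this scale was 74.2, 77.8 and 175 in tumor cells and 263, 136 and 3365 in neutrophil-like cells (log2 fold change -2.45 ± 0.55, edgeR adjusted p = 0.00159). *Nr4a1* was 89.0, 24.5 and 39.4 in tumor cells against 222, 80.1 and 1032 (log2 fold change -2.71 ± 0.49, edgeR adjusted p = 0.000199). *Ier2* was 178, 205 and 338 against 559, 388 and 2357 (log2 fold change -1.77 ± 0.35, edgeR adjusted p = 0.000455). In these 3 genes the neutrophil-like level was the higher one in 3 of 3 tumors, and eRT 568 held the highest neutrophil-like value of each. *Junb* was 178, 481 and 602 in tumor cells and 466, 596 and 7429 in neutrophil-like cells (log2 fold change -1.93 ± 0.46, edgeR adjusted p = 0.00266). *Atf3* was 59.3, 80.0 and 82.6 against 75.0, 196 and 1278 (log2 fold change -1.99 ± 0.77, edgeR adjusted p = 0.048). Without eRT 568 only *Ier2* and *Nr4a1* passed, with adjusted p of 0.169, 0.596 and 0.139 by edgeR for *Junb*, *Atf3* and *Zfp36*. Without TMM scaling the median of all genes moved to a log2 fold change of 1.03, the share of higher genes among those called went from 43.8% to 77.9%, and the genes that passed were *Fosb* (1.29, adjusted p = 0.0258) and *Jun* (1.28, adjusted p = 0.0201), higher in tumor cells, and *Nr4a1* (-1.76, adjusted p = 0.011) and *Zfp36* (-1.48, adjusted p = 0.0299), lower.

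Macrophage-like against neutrophil-like cells gave 0 of the 10 genes past the threshold, against 14.0% of all genes. At an unadjusted p under 0.05 there were 2 (*Ier2* and *Nr4a1*), and DESeq2 also called 0. Without TMM scaling, which moved the median of all genes to 0.80, *Fos* (1.67, adjusted p = 0.0143 by edgeR) and *Fosb* (1.47, adjusted p = 0.0228) were higher in macrophage-like cells. The share of higher genes among all called went from 37.6% to 83.7% without it.

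A list of 30 other immediate early and primary response genes, of which 29 were tested, was read from the same fit. Against macrophage-like cells 2 were higher and 11 lower, with a median log2 fold change of -0.79, where 17.8% of all genes were higher and 19.2% lower. The higher ones were *Cyr61*, a matricellular target of YAP and SRF (6.93 ± 0.48, adjusted p = 9.62e-10 by edgeR), and *Fosl1*, the Fos family member FRA1 (4.82 ± 0.67, adjusted p = 8.74e-06). Among the lower were the MAP kinase phosphatases *Dusp2* (-4.00 ± 0.80, adjusted p = 0.000371) and *Dusp1* (-3.37 ± 0.49, adjusted p = 7.75e-06), which end ERK and p38 signaling, and the kinase *Sik1* (-2.95 ± 0.43, adjusted p = 8e-06). Against neutrophil-like cells 2 were higher and 17 lower (median -1.87, with 15.5% and 19.9% of all genes), led by *Dusp2* (-4.63), *Nfkbiz*, a coactivator of NF-κB target genes (-4.54), and *Dusp1* (-4.04), with *Cyr61* (7.61) and *Klf4* (1.37) higher. Against T cell-like cells 6 were higher and 7 lower (median -0.28, with 19.2% and 16.0% of all genes), with *Cyr61* (7.45), *Fosl1* (3.70) and *Rhob* (3.55) at the upper end and *Dusp2* (-6.01), *Tnfaip3* (-3.68) and *Sik1* (-3.29) at the lower. Between macrophage-like and neutrophil-like cells 0 were higher and 8 lower (median -1.15), led by *Fosl1* (-3.95), *Gadd45b* (-2.61) and *Trib1* (-2.15). The median over all genes was between 0.03 and 0.08 in these 4 comparisons.

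Of 17 regulators of immediate early genes, 15 were tested, and 7, 6 and 4 of them passed against macrophage-like, neutrophil-like and T cell-like cells, where 37.0, 35.4 and 35.3% of all genes passed, so these counts are near the background. Their median log2 fold changes were -0.25, -0.43 and -0.19. Against macrophage-like cells 2 were higher in tumor cells, *Mkl1* (1.18), an actin-regulated partner of SRF, and *Elk1* (1.16), a ternary complex factor. There 5 were lower, led by *Rps6ka1* (-2.53), the ERK-activated kinase RSK1, *Creb1* (-1.21) and *Mapk14* (-1.19), which encodes p38α. *Rps6ka1* and *Creb1* also led the 6 lower regulators against neutrophil-like cells (-2.71 and -2.17, with *Mapk14* at -1.81 and 0 higher) and the 3 lower ones against T cell-like cells (-2.20 and -2.07, with *Crem* at -1.72). *Elk1* was the single higher regulator against T cell-like cells (2.26), and *Atf1* the single one that passed between macrophage-like and neutrophil-like cells (-1.27). Heat shock genes, a list of 11 that stress of many kinds induces, gave 6, 5 and 4 higher and 0 lower in tumor cells against macrophage-like, neutrophil-like and T cell-like cells. Of all genes 17.8, 15.5 and 19.2% were higher there, and the list's median log2 fold changes were 0.73, 0.60 and 0.80 against 0.03, 0.08 and 0.06 over all genes. The small heat shock protein gene *Hspb1* led each (5.25, 6.75 and 5.64). Between macrophage-like and neutrophil-like cells 2 were higher, *Hspe1* (1.55) and *Hspa8* (1.01).

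The order of the tumors was compared between kinds of cells. In macrophage-like cells eRT 568 was the highest tumor for 8 of the 10 genes, in monocyte-like cells for 8 and in T cell-like cells for 6, and in tumor cells for 1 (*Zfp36*). It was the highest for 0 in natural killer cell-like cells, where MYC spinal 1177 was so for 7 and MYC spinal 1172 for 3. The share over all genes was not taken for natural killer cell-like cells. The tumor-cell value of eRT 568 mostly averages 2 clusters, of 6507 CPM and of 386 CPM summed over the 10, so its place in this order depends on the cluster: within the largest tumor-cell cluster of each subtype, chosen after the clusters had been seen, eRT 568 was the highest tumor for 5 of the 10 (*Fos*, *Jun*, *Ier2*, *Atf3* and *Zfp36*), and the other 5 tumors held 1968 to 4086 CPM. MYC spinal 1177 was the highest there for 4 (*Fosb*, *Jund*, *Egr1* and *Nr4a1*) and eRT 1148 for 1 (*Junb*). These clusters held only 15 cells in MYC spinal 1177, 20 in eRT 1148 and 54 in eRT 568. The share over all genes was not taken within them. Of all 3254 genes with a mean of at least 20 CPM in each kind of cell found in 6 tumors, eRT 568 was the highest for 9.1% in macrophage-like, 10.4% in monocyte-like, 7.13% in T cell-like and 5.56% in all tumor cells. Summed over the 10 genes, eRT 568 held 12114 CPM in macrophage-like cells against 3677 to 7235 CPM in the other 5 tumors. Its neutrophil-like cells held 12114 CPM, its T cell-like cells 6146 CPM and its tumor cells 3775 CPM. The 30 other immediate early genes were at 36586 CPM in the neutrophil-like cells of eRT 568 against 4478 and 3556 CPM in MYC spinal 1177 and 1232. Those MYC spinal cells include the cluster led by *Orm1*, *Camp* and *Ngp*, and its part in this contrast was not tested. In the monocyte-like cells of eRT 568 the 30 genes were at 21767 CPM, where the median of the 6 tumors was 4297 CPM. Heat shock genes did not follow: macrophage-like cells of eRT 568 held 4441 CPM within a range of 3277 to 8693 CPM.

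Monocyte-like cells, found in all 6 tumors, showed the same tumor on top for most genes. *Fos* was at 619, 1303 and 1089.8 (MYC spinal) and 1658, 4693 and 892 CPM (eRT) in them. *Jun* was at 372, 294 and 371 (MYC spinal) and 409, 1726 and 554 CPM (eRT), and *Junb* was at 1091, 410.2 and 579.7 (MYC spinal) and 1098, 2358 and 1167 CPM (eRT). In all 3 eRT 568 was the highest tumor. *Egr1* was at 14.3, 112 and 33.2 (MYC spinal) and 44.0, 469 and 70.2 CPM (eRT). *Atf3* was at 42.9, 397 and 106 (MYC spinal) and 124, 1054 and 598 CPM (eRT) and *Nr4a1* at 47.6, 340.2 and 72.7 (MYC spinal) and 58.0, 466 and 101 CPM (eRT). In *Nr4a1* MYC spinal 1177 came second, and in *Atf3* eRT 593 did. *Zfp36* was at 105, 234 and 155 (MYC spinal) and 186, 1283 and 182 CPM (eRT), and *Ier2* at 314, 349 and 163 (MYC spinal) and 281, 935 and 411 CPM (eRT), again with eRT 568 above all others.

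*Fosb* and *Jund* were highest in MYC spinal 1177 in all 5 kinds of cells found in 6 tumors, tumor cells included. That is 2 of the 10 genes, while 2.34% of the 3254 genes were highest in this tumor in all 5 kinds and 1.11% were so in eRT 568, where 0 of the 10 were. *Jund* in natural killer cell-like cells was 37.4, 770.4 and 57.7 (MYC spinal) and 56.3, 68.7 and 69.3 CPM (eRT). In T cell-like cells it was 52.4, 729.7 and 72.2 (MYC spinal) and 44.7, 167 and 89.3 CPM (eRT) and in monocyte-like cells 81.0, 543 and 45.7 (MYC spinal) and 32.2, 173 and 65.0 CPM (eRT). *Fosb* in monocyte-like cells was 19.1, 615 and 131 (MYC spinal) and 54.7, 349 and 156 CPM (eRT). In natural killer cell-like cells *Fosb* was 14.4, 572 and 64.1 (MYC spinal) and 4.69, 45.8 and 0 CPM (eRT), and the 0 of eRT 593, in 24 cells, allows up to 104 CPM. MYC spinal 1177 is also the shallowest library per cell, with a median of 916 UMIs, and the part of depth in this order was not tested.

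**Figure D3:**
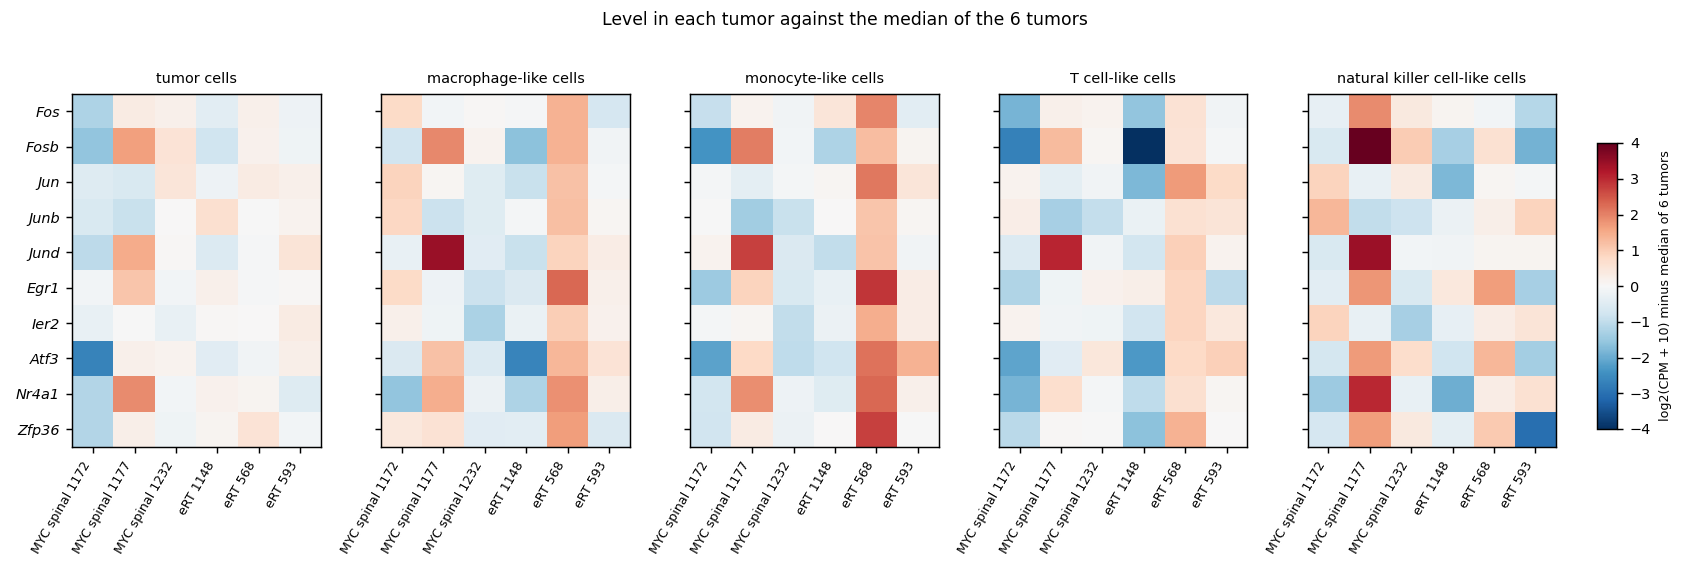
Level of each of the 10 genes in each tumor against the median of the 6 tumors, as a difference of log2(CPM + 10), in tumor cells and in macrophage-like, monocyte-like, T cell-like and natural killer cell-like cells. The eRT 568 column is red for most genes in macrophage-like and monocyte-like cells and near white in tumor cells, where it averages a cluster of 6507 CPM and one of 386 CPM, and *Fosb* and *Jund* are red in MYC spinal 1177 in every panel.

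Natural killer cell-like and osteoclast-like cells entered no test. *Junb* in natural killer cell-like cells was 3125, 621 and 686 (MYC spinal) and 1051, 1439 and 2287 CPM (eRT), with MYC spinal 1172 highest. *Fos* there was 193, 919.6 and 321 (MYC spinal) and 263, 225 and 104 CPM (eRT), with MYC spinal 1177 highest. *Nr4a1* in them was 17.3, 596 and 51.3 (MYC spinal) and 9.38, 82.5 and 104 CPM (eRT), where MYC spinal 1177 was again far above the rest. Osteoclast-like cells were found in MYC spinal 1232, eRT 1148 and eRT 593, with 941, 937 and 721 CPM of *Fos*, a factor that osteoclasts need to form. Their *Junb* was 319, 626 and 428 CPM. Their *Atf3* was 17.9, 1.67 and 0 CPM, and the 0 of eRT 593, in 10 cells, allows up to 67.6 CPM.

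Tumor cells of the 3 eRT were compared with those of the 3 MYC spinal tumors, which asks whether the subtypes differ in these genes. By edgeR's quasi-likelihood test 0 of the 10 passed, as did 0.0% of the 5697 genes tested. At an unadjusted p under 0.05 there were 0 of the 10 and 184 of all genes, and DESeq2 called 0 of the 10 and 20 of all genes. *Junb* came closest, at 368 ± 128 CPM in the MYC spinal and at 612 ± 156 CPM in the eRT tumor cells (SD, n = 3 each), and its ranges overlapped. *Ier2* was the only one of the 10 whose ranges did not overlap, at 218 to 268 CPM in MYC spinal and 277 to 348 CPM in eRT tumor cells, while 9.06% of 5253 genes were separated in this way. Fitted fold changes were above 0 for 9 of the 10 genes with TMM scaling and for 5 without, where the median of all genes moved to -0.27.

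Macrophage-like cells of the 2 subtypes also gave 0 of the 10 genes past the threshold, with 0.0% of 7937 genes in the background. At an unadjusted p under 0.05 there were 0 of the 10 and 160 of all genes, and DESeq2 called 0 of the 10 and 3 of all genes. None of the 10 was separated between the subtypes, against 5.01% of 4787 genes. *Fos* was at 1795 ± 610.3 CPM in the MYC spinal and at 2076 ± 1571 CPM in the eRT macrophage-like cells (SD, n = 3 each). *Egr1* was at 83.9 ± 53.4 CPM and 192 ± 211 CPM (SD, n = 3 each), with the eRT spread set by eRT 568. The 30 other immediate early genes, the regulators and the heat shock genes likewise gave 0 calls in either comparison.

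Within a tumor, clusters of tumor cells differed widely in these genes. The values are a description, since clusters are made of the same cells, though the 10 genes were not used to form them. In eRT 568 a cluster led by *C1qtnf3*, *Efemp1* and *Lurap1l* (54 cells) held 6507 CPM of the 10 genes. A cluster led by *BC048546*, *Ctla2a* and *Gap43* (145 cells, 72.1% of the tumor cells there) held 386 CPM. *Fos* was at 1904 and 54.2 CPM in the 2 clusters, *Jun* at 2048 and 65.0 CPM and *Egr1* at 399 and 14.4 CPM. The mean of eRT 568 tumor cells, 3775 CPM, thus lies between a high and a low cluster and describes neither.

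The low cluster was also shallow and poor in genes. Its cells had a median of 1577 UMIs and 441 genes, and 46.7% of UMIs were from ribosomal protein genes, against 5891 UMIs, 1907 genes and 23.4% in the other. Its counterparts in eRT 1148 (10 cells) and eRT 593 (66 cells) held 1098 and 1899.8 CPM, against 3340 to 3421 CPM and 3743 CPM in the other clusters of those tumors. In MYC spinal 1232 a cluster led by *S100a6*, *Crabp1* and *Klk8* (176 cells) held 189 CPM, while the main cluster, led by *Mfap4*, *H19* and *Id3* (1444 cells), held 4086 CPM. Here *Fos* was at 32.8 against 1141 CPM and *Jun* at 30.3 against 1395 CPM. That low cluster had a median of 1922 UMIs and 606.5 genes with 37.6% ribosomal protein UMIs, against 4609 UMIs, 1710.0 genes and 22.2%. Mitochondrial shares were 1.94% and 1.55%, and the 30 other immediate early genes stood at 348 against 4163 CPM, while heat shock genes stood at 12219 against 10170.0 CPM. The part of RNA quality in these low clusters was not tested. With tumor cells restricted to the largest cluster of each subtype, a choice made after the clusters had been seen, the same 7, 5 and 3 of the 10 genes passed against macrophage-like, neutrophil-like and T cell-like cells.

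**Figure D4:**
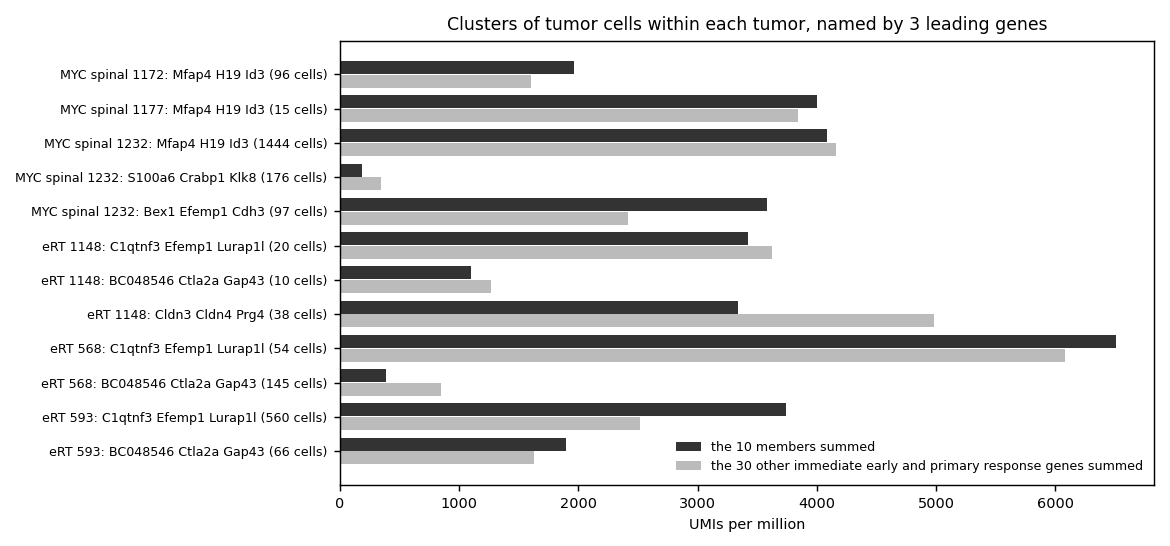
Summed level, in CPM, of the 10 genes (dark bars) and of the 30 other immediate early and primary response genes (light bars) in each cluster of tumor cells of each tumor, with the 3 leading genes and the number of cells. The *BC048546* cluster of eRT 568 (386 CPM) and the *S100a6* cluster of MYC spinal 1232 (189 CPM) stand far below the other clusters of their tumors.

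Single cells were thinned to 1000 UMIs each so that depth did not set how many of the 10 genes were seen, and cells below that depth were left out. Cells with 3 or more of the 10 genes made up 21.2, 53.8 and 39.1% (MYC spinal) and 38.2, 21.7 and 36.9% (eRT) of tumor cells, where the 53.8% rests on 13 cells. In macrophage-like cells the shares were 51.6, 73.3 and 43.0% and 37.4, 76.2 and 49.2%, the 73.3% on 15 cells. Monocyte-like cells reached 90.5% and neutrophil-like cells 93.4% in eRT 568, against 16.0 to 60.3% and 21.7 to 24.1% in the other tumors with such cells. In T cell-like cells the shares ran from 3.45 to 50.5% and in natural killer cell-like cells from 3.64 to 53.8%. Tumor cells with 0 of the 10 genes made up 45.5, 7.69 and 19.7% (MYC spinal) and 22.1, 55.0 and 19.6% (eRT). The tenth of tumor cells richest in these transcripts held 34.3 to 50.9% of them.

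*Fos* was seen in 23.2, 61.5 and 46.6% (MYC spinal) and in 39.7, 25 and 37.1% (eRT) of thinned tumor cells. Without thinning the shares were 44.6, 86.7 and 72.7% and 69.1, 29.9 and 59.6%, so the share depends on depth. The exact binomial interval at 95%, which like all intervals here covers counting error only, was 44.2 to 49.0% in MYC spinal 1232, with 1717 cells, and 31.6 to 86.1% in MYC spinal 1177, with 13 cells.

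Genes of the set were seen in the same cells more often than their separate shares give. For each pair found in at least 5% of thinned cells, the cells with both were divided by the number expected if the 2 were independent, in the 5 tumors with at least 50 thinned tumor cells. The median over pairs in tumor cells was 1.88 in MYC spinal 1172, 1.48 in MYC spinal 1232, 1.34 in eRT 1148, 2.58 in eRT 568 and 1.53 in eRT 593, while the median over all pairs of genes in the same cells was 0.944 to 1.02. Ratios above 1 were found for 19 of 21, 36 of 36, 19 of 28, 20 of 21 and 36 of 36 pairs. The 90th percentile over all pairs of genes was 2.20, 1.30, 2.43, 2.07 and 1.43. Above it lay 7, 30, 1, 16 and 24 of these pairs, in the same order of tumors. The 1 of 28 in eRT 1148 is below the share of all pairs that lies there by definition. The share of all pairs of genes above 1 was not counted. Since a mixture of high and low clusters raises such a ratio, it was also taken within the largest tumor-cell cluster of each subtype, where it was 1.81 in MYC spinal 1172, 1.33 in MYC spinal 1232, 1.23 in eRT 568 (54 cells, with 0.692 over all pairs of genes) and 1.45 in eRT 593, while the 20 such cells of eRT 1148 were too few. In eRT 568 that cluster is the smaller of its main clusters. There 1 of 45 pairs lay above the 90th percentile over all pairs of genes, 2.70.

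*Fos* and *Egr1* were seen together at a ratio of 1.93 (median of 5 tumors, range 1.48 to 3.20), and *Egr1* and *Ier2* at 2.08 (1.75 to 2.78). *Fosb* and *Jun*, which can pair in AP-1, came to 2.04 (1.28 to 3.17), *Fos* and *Fosb* to 1.89 (1.43 to 3.56) and *Fos* and *Jun* to 1.31. All 5 pairs were above 1 in 5 of 5 tumors. *Fos* with *Junb* gave 1.45 and *Fosb* with *Junb* 1.55. In macrophage-like cells the median over pairs was 1.15 to 1.34, with 25 of 28, 25 of 28, 10 of 10, 43 of 45 and 43 of 45 pairs above 1 in MYC spinal 1172 and 1232 and eRT 1148, 568 and 593. Above the 90th percentile over all pairs of genes lay 2, 7, 1, 1 and 29 of them. In MYC spinal 1172, eRT 1148 and eRT 568 this is no more than the share of all pairs that lies there by definition. The share of all pairs above 1 was not counted in macrophage-like cells either. In macrophage-like cells *Ier2* with *Zfp36* came to 1.36 (1.22 to 1.45) and *Fos* with *Jun* to 1.18 (1.12 to 1.45). Cells are not replicates, so no test was made of these ratios.

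Cells with 3 or more of the 10 genes also held more of the 30 other immediate early genes than cells with fewer. In tumor cells the ratio of their summed levels was 1.89 to 5.51 and above 1 in 5 of 5 tumors, and in macrophage-like cells 1.47 to 4.75, again in 5 of 5. Within the largest tumor-cell cluster of each subtype it was 1.80 in MYC spinal 1172, 1.71 in MYC spinal 1232, 2.11 in eRT 593 and 1.30 in eRT 568, the tumor that had given 5.51. Monocyte-like cells gave 1.40 to 1.90 in 5 of 5 and T cell-like cells 1.39 to 2.12 in 4 of 4. Heat shock genes did not follow, with a ratio of 0.709 to 1.18 in tumor cells, above 1 in 2 of 5 tumors, and above 1 in 3 of 5 in macrophage-like cells. In eRT 568 the tumor cells with 3 or more of the genes had a median of 5624 UMIs before thinning against 1979 in the others, while in 3 of the other 4 tumors they were the shallower cells.

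**Figure D5:**
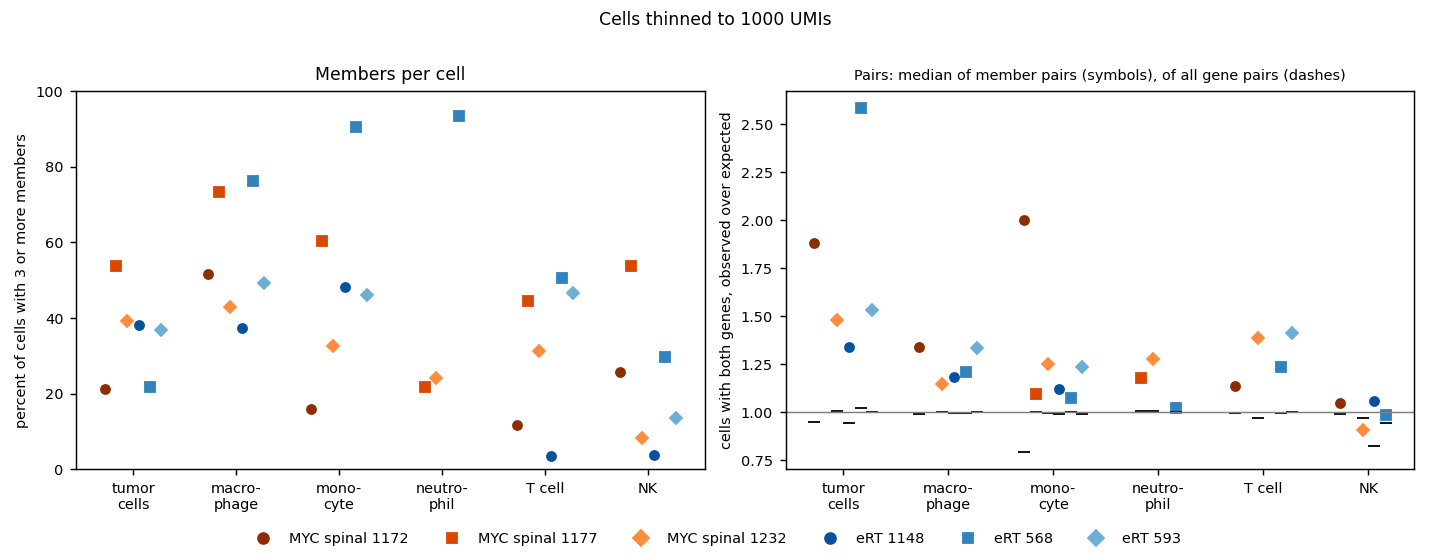
Left, percent of cells thinned to 1000 UMIs with at least 3 of the 10 genes, for each tumor in 6 kinds of cells. Right, cells with both genes of a pair over the number expected from the 2 shares, as the median over pairs of the 10 genes (symbols) and over all pairs of genes (dashes). Tumor cells lie at 1.34 to 2.58 on the right, macrophage-like cells at 1.15 to 1.34, and most dashes near 1.

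Over the 48 sums of named kinds of cells and tumors, the level of each gene was compared with the mean of the other 9 as log2(CPM + 10). These sums share tumors and libraries, so Pearson's r is given as a description. It was 0.77 for *Zfp36*, 0.75 for *Atf3*, 0.71 for *Fos*, 0.69 for *Nr4a1*, 0.65 for *Jun*, 0.60 for *Fosb*, 0.60 for *Egr1* and 0.53 for *Ier2*. *Jund* (0.38) and *Junb* (0.10) followed the others least. Among 5160 genes outside the 10, the closest to their mean were *Hk2* (r = 0.81), hexokinase 2 of glycolysis, *Nlrp3* (0.79), the inflammasome sensor, *Ccnl1* (0.76), a cyclin of splicing, *Picalm* (0.74), of clathrin-mediated endocytosis, and *Ier3* (0.73), itself an immediate early gene. *Nfkbiz* (0.72), *Cebpb* (0.71), a myeloid transcription factor, *Plaur* (0.70), the urokinase receptor, and the cytokines *Tnf* (0.70) and *Ccl3* (0.69) came next.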

How the data were processed

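Libraries were made with the 10x Genomics 3′ v2 chemistry from dissociated, 7-AAD-negative cells of 6 mouse tumors. The authors aligned reads to mm10 with Cell Ranger 2.0.2 and deposited raw UMI counts per gene and cell for each tumor, listing genes found in at least 3 cells. Sample columns left unused number 0. The 3′ counts carry no transcript length, so levels are not compared between genes. With 1 library an animal, p-values between subtypes measure the spread between animals. Those within tumors rest on how the differences between kinds of cells vary over tumors, since the block takes out the level of each animal.

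The 10 genes and all lists were chosen with earlier results of these data known. Cells were kept at 200 genes or more and a mitochondrial share up to 25%. The tumors of each subtype were scaled to 10000, integrated with Seurat 5.3.0 on 2000 variable genes without the 10 genes and the 3 related lists, and clustered on 30 dimensions with 20 neighbors at resolution 0.8. A cluster took a name, such as macrophage-like, when 3 or more markers of that type, each in 10% of its cells or more, exceeded the other cells by a log2 fold of 1, numbers set after clusters had been seen. Clusters with *Smarcb1* below 0.25 of its immune-cell level, and at least 10 UMIs of it expected, were taken as tumor cells, whatever name their markers gave. The neutrophil-like cluster of the eRT was at 0.115 with 8.70 UMIs expected, so this rule could not be applied to it, and its name rests on its markers. Scrublet, run through scanpy 1.11.5, marked 21 cells, so few that it cannot have worked, and all cells were retained.

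UMIs were summed by tumor and kind of cell (at least 10 cells) and tested with edgeR 4.0.16 (TMM, filterByExpr, quasi-likelihood test, Benjamini-Hochberg at 0.05) in R 4.3.3. The 4 comparisons within tumors share 1 fit with the tumor as a block, since the kinds of cells come from the same animals, and the 2 between subtypes have no covariate. The main test was run on simulated counts with known changes. Fold changes with SE and adjusted p are given for those of the 10 genes past 0.05, and of each list at most the 3 largest changes a direction past 0.05 are named. Intervals of CPM are exact Poisson and those of shares exact binomial, at 95%, and a count of 0 is given the value of 3 counts. Alternatives were no TMM, DESeq2 1.42.0, no gene filter, stricter cell filters, no cells of the highest Scrublet scores, resolutions 0.4 and 1.6, no block, thinning to 500 and 2000 UMIs or none, and each tumor left out. Since Scrublet marked so few cells, leaving out its highest scores cannot show the part of doublets. The restriction to the largest tumor-cell cluster of each subtype was added after the data had been seen. Python 3.11.15, numpy 2.4.6, scipy 1.17.1, pandas 2.3.3 and matplotlib 3.10.9 were also used. Promoter windows are from RefSeq (GRCm38.p6) and gene positions from GENCODE.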

Additional observations from a re-analysis of the deposited data

Results flagged for a closer look

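In 5 of 50 sets of 6 tumors, 1 for each gene in each of 5 kinds of cells, 1 tumor stood apart from the others on the log2(CPM + 10) scale by Dixon's criterion, where chance gives about 1 in 20 for a single set. The 50 sets share the same 6 tumors and are not independent, so their count cannot be read against that rate. The tumor cells of MYC spinal 1177 held 514 CPM of *Egr1* (23 UMIs in 15 cells, 95% interval 326 to 772 CPM), above the other tumors. The tumor cells of MYC spinal 1172 held 3.60 CPM of *Atf3* (2 UMIs in 101 cells), below the others. The monocyte-like cells of eRT 568 stood apart with 1726 CPM of *Jun* and with 1283 CPM of *Zfp36*. In the natural killer cell-like cells of MYC spinal 1177, *Jund* was at 770.4 CPM.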

How the results depend on the processing

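The number of the 10 genes past the threshold was within 1.5 times its value in 85 of 88 combinations of comparison and alternative. This compares counts, not genes, and includes counts of 0 that stayed 0. Against neutrophil-like cells without TMM scaling, 4 genes passed, of which 2 were among the 5 of the main fit. The fitted fold change of a gene named as past the threshold kept its direction in 225 of 225. For tumor cells against macrophage-like cells the count was 7, 4 without the block by tumor (*Fos*, *Egr1* and *Ier2* lost, adjusted p = 0.0631, 0.443 and 0.0992 by edgeR), and 5 to 6 with a tumor left out. *Ier2* also missed the threshold without TMM scaling (adjusted p = 0.0573). Against neutrophil-like cells the count was 5, and 2 to 5 with a tumor left out, the 2 without eRT 568. *Atf3* there was near the threshold, at an adjusted p of 0.0661 by DESeq2, 0.0526 with stricter cell filters, 0.0841 without MYC spinal 1232 and 0.0809 without eRT 593. Against T cell-like cells it was 3, 2 without the block (*Jun* lost, adjusted p = 0.0743), and 3 to 4 with a tumor left out. Macrophage-like against neutrophil-like cells went from 0 to 2 without TMM scaling, and both subtype comparisons gave 0 of the 10 under each alternative. The cause of these moves was not tested. The block by tumor is the pairing of this design, and replicate numbers given in accession order pair no tumors between subtypes.

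Counts over all genes moved by more than 1.5 times from 3246 to 4957 without the gene filter (tumor against macrophage-like cells), from 1230 to 2451 without TMM, 661 with stricter cell filters, 735 without MYC spinal 1177 and 588 without eRT 568 (macrophage-like against neutrophil-like cells), and from 0 to 20 by DESeq2 (tumor cells between subtypes) and to 3 by DESeq2, 4 without the gene filter and 1 without MYC spinal 1232 (macrophage-like cells between subtypes). The median co-detection ratio in tumor cells was above the median of all pairs in 5 of 5 tumors at 500, 1000 and 2000 UMIs. That of eRT 568 went from 2.58 to 1.79 at 2000 UMIs. Of 20 shares of cells, 15 moved without thinning. Depth limits MYC spinal 1177 most, where 67 of 82 macrophage-like and 1293 of 2079 monocyte-like cells were below 1000 UMIs.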

Other observations

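B cell-like cells and granulocyte-monocyte progenitor-like cells enter none of the comparisons above. *Jund* was at 132, 1278 and 238 CPM in the B cell-like cells of MYC spinal 1172, MYC spinal 1177 and eRT 568, and at 75.7, 499 and 45.5 CPM in the progenitor-like cells of MYC spinal 1172, 1177 and 1232. *Fosb* was at 49.3, 611 and 119 CPM in the same B cell-like cells, and at 401 and 81.9 CPM in the progenitor-like cells of MYC spinal 1177 and 1232. In both kinds of cells MYC spinal 1177 was the highest tumor for both genes, as it was in the 5 kinds of cells found in all 6 tumors.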
